A study of Mus musculus with 16 samples.

Results

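The 9 genes described here encode cardiac receptors for catecholamines, acetylcholine, vasopressin, angiotensin II and endothelin. They are *Adra1a*, *Adra1b*, *Adrb1*, *Chrm2*, *Chrm3*, *Avpr1a*, *Agtr1a*, *Ednra* and *Ednrb*, and were taken by name from a table of 51912 genes. All 9 passed the filter on low values, which left 20159 genes for testing (at least 10 counts over the 4 libraries of every group). RNA was sequenced from whole ventricles, above and below the ligature, of 16 mice in 4 groups of 4. WT SH and WT MI were C57BL/6J mice bought from a supplier, and KO SH and KO MI were whole-body *Lrrc10*-/- mice made in a C57BL/6 background, so that genotype and colony cannot be told apart. MI mice had the left anterior descending coronary artery tied at postnatal day 1, and SH mice had the chest entered and closed with the heart left in place. All were collected 7 days post-surgery. The KO MI replicates are numbered 1, 2, 3 and 7.

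All 9 receptors are G protein-coupled. The alpha1-adrenergic receptors, the M3 muscarinic receptor, the V1a vasopressin receptor, the AT1 angiotensin receptor and both endothelin receptors act mainly through Gq and phospholipase C, which releases calcium from stores and activates protein kinase C. The beta1-adrenergic receptor raises cyclic AMP through Gs and increases heart rate and contractility, while the M2 muscarinic receptor acts through Gi and opens the potassium channel formed by *Kcnj3* and *Kcnj5*. In adult hearts sustained activation of the adrenergic, angiotensin and endothelin receptors accompanies hypertrophy and heart failure.

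Transcript levels are given as CPM, read counts scaled to a common library size after correction for library composition by TMM, edgeR's scaling factor. Library totals ranged from 33783874 to 57470159 counts (median 45092798), and a floor of 3 counts equalled 0.0577 to 0.0858 CPM. *Lrrc10* had 0 counts in all 8 knockout libraries and from 1075 to 1850 in the 8 WT libraries. *Xist*, transcribed from the inactive X chromosome of females, was above 100 CPM in 6 libraries (KO SH 1 and 2, WT MI 2 and 4, KO MI 1 and 2). None of the 4 WT SH libraries was among them, although the groups were described as balanced for sex, and these 4 held from 159.7 to 165.2 CPM in all of 4 genes on the Y chromosome (*Uty*, *Kdm5d*, *Ddx3y* and *Eif2s3y*). A term for high *Xist* and a fit of the 10 libraries with low *Xist* alone (4 of WT SH and 2 of each other group), the latter added after the data were seen, were therefore tried, and are given where a call was lost or gained or a fall in KO MI shrank. Of KO MI the low-*Xist* fit keeps replicates 3 and 7. Its results for KO MI therefore cannot be told apart from those of leaving out KO MI 2. The KO MI libraries differed among themselves. *Nppa*, which encodes atrial natriuretic peptide, an atrial product that stressed ventricles also make, was at 307 CPM in KO MI 1, 2396 in KO MI 2, 778 in KO MI 3 and 150.5 in KO MI 7, against 41.2 to 207 CPM in the other 12 libraries. *Myl7*, the atrial regulatory light chain, was at 2.09 CPM in KO MI 2 and 9.62 in KO MI 3, against 10.1 in WT SH 2. Both genes belong to a list of 6 atrial markers. All 6 had a positive log2 fold change in KO MI against KO SH (median 2.84), as had 5 of 6 in KO MI against WT MI (median 1.49). In KO SH against WT SH 2 of 6 were positive (median -1.96), and KO SH is the reference of the 2.84. The summed 14 skeletal muscle markers were highest in KO MI 2 (742.5 CPM, against 306.7 to 453.7 in the other libraries). The defining markers *Gfap* and *Th* of glia and sympathetic neurons and *Myod1* of skeletal muscle were at or under 3 counts in every library. In whole ventricles, fewer cells of a type and less RNA per cell cannot be told apart.

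Per kilobase of exon, *Chrm2* was the most abundant receptor transcript and *Adra1a* the least. The mean over the 16 libraries was 16.2 CPM per kb for *Chrm2* (range 11.1 to 23.1), 7.19 for *Adrb1* (6.09 to 8.45), 5.32 for *Ednrb* (4.43 to 6.81) and 4.80 for *Ednra* (3.90 to 5.48). *Agtr1a* followed at 2.60 (1.64 to 3.12) and *Adra1b* at 2.58 (1.09 to 3.77). The remaining transcripts were scarce, with 0.338 for *Avpr1a* (0.21 to 0.551), 0.107 for *Chrm3* (0.0346 to 0.170) and 0.0437 CPM per kb for *Adra1a* (0.0107 to 0.0794). Of neighbours in this order, the ranges of *Adrb1* and *Ednrb*, *Ednrb* and *Ednra*, *Agtr1a* and *Adra1b*, and *Chrm3* and *Adra1a* overlapped. The order within some of these pairs also depended on the length used. By the length of the canonical transcript, *Ednra* (6.01 CPM per kb) stood above *Ednrb* (5.94), *Adra1a* (0.202) above *Chrm3* (0.154), and *Agtr1a* rose to 5.24, within the range of *Ednrb*, with *Adra1b* at 2.86. *Adrb1* stayed above *Ednrb* and *Agtr1a* above *Adra1b*.

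**Figure D1:**
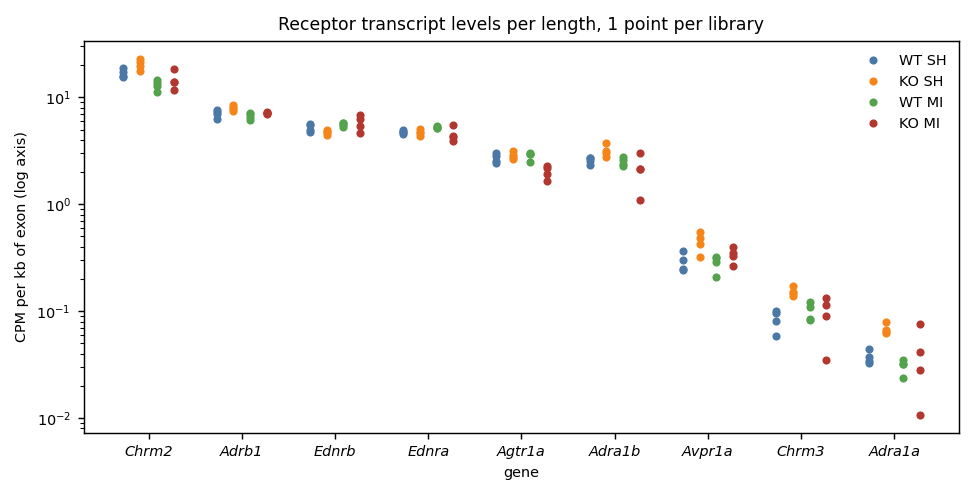
Level of each receptor transcript in CPM per kb of exon (log axis), 1 point per library, coloured by group, with genes ordered by their mean over the 16 libraries. *Chrm2* lies at 11.1 or above in every library, and *Avpr1a*, *Chrm3* and *Adra1a* lie below 1 in every library.

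Whether deletion of *Lrrc10* changed the receptors without injury was asked by KO SH against WT SH. *Chrm3* and *Avpr1a* were higher in KO SH, and none of the 9 was called lower. DEGs, the differentially expressed genes, were those with an adjusted p below 0.1 and a log2 fold change of 0.5 or more in size, which are the study's thresholds. The p-values come from quasi-likelihood tests in edgeR and were adjusted over all 20159 genes by the Benjamini-Hochberg method. With 2 of 9 receptors called, the share over all genes tested was 5.01% (2.48% for higher genes). Of the 9 differences 7 were positive, with a median of 0.28, against 0.00527 over all genes tested. The libraries of KO SH lay above all those of WT SH for 3 receptors (*Adra1a*, *Adra1b* and *Chrm3*), a separation found upwards in 8.35% of all genes. In these groups the 8 summed cardiomyocyte markers ranged from 68410 to 70770 CPM in KO SH and from 76290 to 89220 in WT SH, with 0 of 8 called by edgeR. Of 8 macrophage markers 2 were lower in KO SH (summed level 48 to 56.12 CPM, against 55.65 to 64.37). The 8 summed endothelial markers were at 852 to 892.8 CPM in KO SH and 927.3 to 947.5 in WT SH, and the 14 skeletal muscle markers at 306.7 to 349.7 and 350 to 453.7. Of 6 atrial markers 1 was called lower in KO SH and 2 were positive (median log2 fold change -1.96). Their summed level was 101.7 to 180.8 CPM in KO SH and 98.48 to 261.7 in WT SH. The mitochondrial ribosomal RNA *mt-Rnr2* took 37.1% to 37.6% of the counts in KO SH and 35.7% to 36.3% in WT SH. The part of these in the receptor differences was not tested.

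After injury, in KO MI against WT MI, *Agtr1a* was lower in KO MI and no other receptor was called. This is 1 of 9, beside 1.73% of all genes called (1.16% lower). Its KO MI libraries lay below all WT MI libraries, as did those of 3.73% of all genes. The median log2 fold change of the 9 was 0.0513, against 0.00767 over all genes tested. In the same comparison 4 of 8 tested skeletal muscle markers (summed level 411.4 to 742.5 CPM, against 344.1 to 403.7 in WT MI) and 1 of 6 atrial markers (*Nppa*) were higher in KO MI. The 8 tested skeletal muscle markers had a median log2 fold change of 2.29, with 7 positive, which their summed level does not show. Their part in the fall of *Agtr1a* was not tested.

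The response of WT hearts to MI, WT MI against WT SH, held no receptor DEG by edgeR (0 of 9, beside 2.78% of all genes), and DESeq2 also called 0. *Chrm2* was the only receptor with an unadjusted p under 0.05, against 16.5% of all genes. WT MI lay below WT SH for *Chrm2* and above it for *Ednra*, a separation in either direction found in 12.1% of all genes. Summed cell type markers separated the same groups. Those of cardiomyocytes were at 67410 to 70640 CPM in WT MI, against 76290 to 89220 in WT SH, and those of endothelium at 790.6 to 872.1, against 927.3 to 947.5. Those of mural cells were at 1192 to 1349 CPM in WT MI, against 1404 to 1494, although 5 of the 10 had a positive log2 fold change. Those of fibroblasts were at 2666 to 3115 CPM in WT MI, against 2196 to 2572, and those of macrophages at 72.44 to 99.34, against 55.65 to 64.37, with 2 of 8 called higher. Their part in the receptor differences was not tested.

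In *Lrrc10*-/- hearts, KO MI against KO SH, *Adra1b* and *Agtr1a* fell and none of the 9 was called higher. The 2 of 9 stand beside 7.42% of all genes called (2.11% lower). *Chrm2* and *Ednrb* also had an adjusted p under 0.1, which 17.5% of all genes had, with log2 fold changes below 0.5 in size. Of the 9 differences 8 were negative, with a median of -0.487 (-0.0103 over all genes tested), and the groups did not overlap downwards for *Adrb1*, *Chrm3* and *Agtr1a* (7.24% of all genes). KO SH is a control here and the test group in the comparison with WT SH, so these 2 sets of differences share 4 libraries. In KO MI, 7 of 8 macrophage markers were DEGs and higher than in KO SH (summed level from 60.65 to 127.6 CPM, against 48 to 56.12), as were 3 of 8 fibroblast markers (2820 to 3161 CPM, against 2054 to 2258). The 10 mural cell markers summed to between 1189 and 1348 CPM in KO MI and between 1404 and 1433 in KO SH, although 3 of 10 were DEGs and higher in KO MI. Of the skeletal muscle markers 6 of 8 tested, and of the atrial markers 3 of 6, were higher in KO MI. The 8 tested skeletal muscle markers had a median log2 fold change of 3.37, with 7 positive. Those of the atrial list that DESeq2 called were *Nppa*, *Myl4* and *Myl1*. The part of these cells in the receptor differences was not tested.

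**Figure D2:**
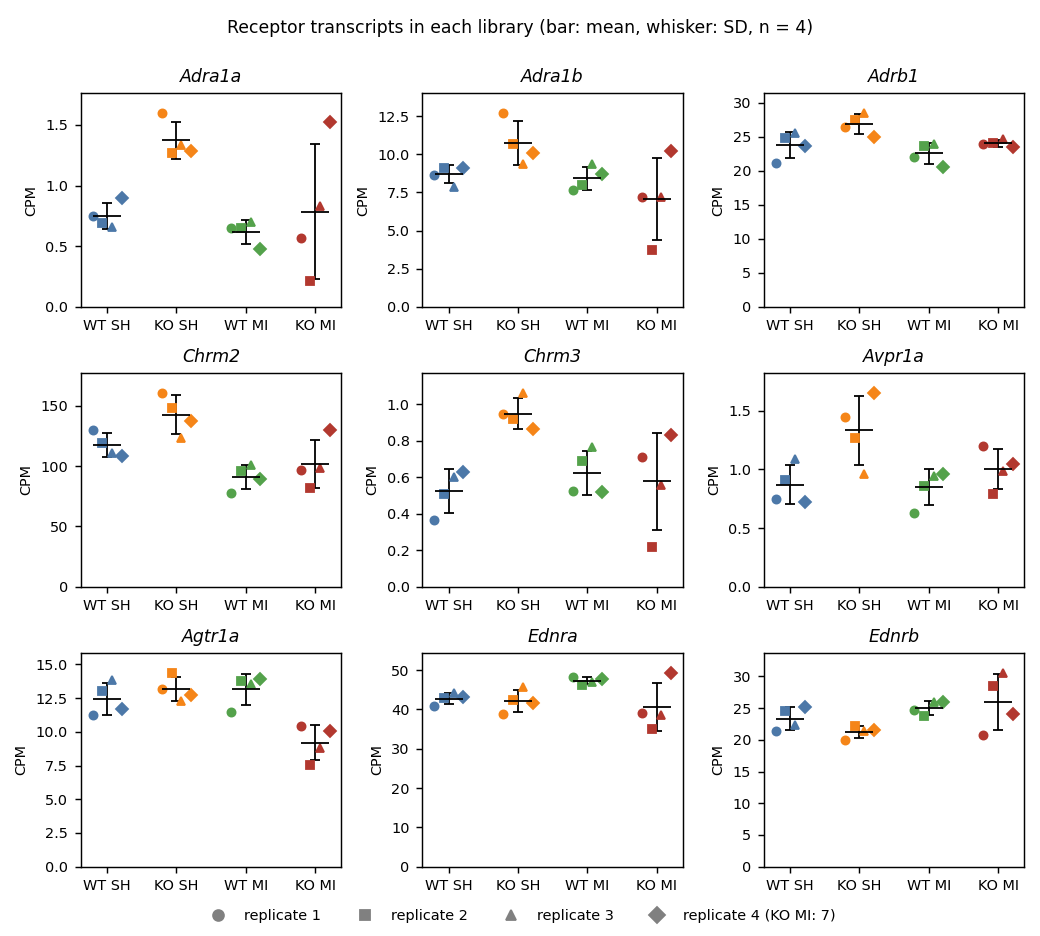
CPM of each receptor gene in the 16 libraries by group, with symbols for replicates, bars for the mean and whiskers for the SD (n = 4 per group, linear axes from 0). KO SH lies above WT SH for *Adra1a*, *Adra1b* and *Chrm3*, KO MI lies lowest for *Agtr1a*, and KO MI 2 is the lowest KO MI library for 7 of 9 genes.

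Of the alpha1-adrenergic receptors, *Adra1b* (chromosome 11, 43665433 to 43792037, minus strand, GRCm39) had the higher level. It was at 8.67, 9.12, 7.87 and 9.12 CPM in WT SH 1 to 4, at 12.7, 10.7, 9.39 and 10.1 in KO SH 1 to 4, and at 7.63, 8.01, 9.38 and 8.71 in WT MI 1 to 4. In KO MI 1, 2, 3 and 7 it was at 7.18, 3.70, 7.19 and 10.2 CPM. KO MI thus spanned levels from under those of every other group to within those of KO SH. *Adra1b* fell by 0.61 on the log2 scale (SE 0.190, edgeR adjusted p = 0.0465) from KO SH to KO MI, where the exact permutation test (two-sided) of log2(CPM + 0.05) gave p = 0.0857. Between KO SH and WT SH the log2 fold change was 0.30 (SE 0.189, edgeR adjusted p = 0.364), although every KO SH library was above every WT SH library (exact permutation p = 0.0286, the smallest that 4 against 4 libraries allow). The fall post-MI was no longer called without KO MI 2 (log2 fold change -0.39), without KO SH 1 (-0.51, edgeR adjusted p = 0.142), without KO MI 2 and 3 together (-0.31, adjusted p = 0.356), with only these groups in the fit (-0.61, adjusted p = 0.149) or among libraries with low *Xist* (-0.17, adjusted p = 0.751). An antisense transcript of this locus, *Gm12153*, had from 11 to 119 counts. The libraries were strand-specific, but whether the counting used strand is not given in the sources used here, so reads of a gene and its antisense partner may not be separated.

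RefSeq lists *Adra1b* with a pair of start sites, and the 250 bases before each are shown because it was called in KO MI. They are on GRCm38.p6, a build other than that of the counts, minus strand, at chr11:43836490-43836739 for the first and chr11:43901238-43901487 for the second. Capitals mark matches on either strand to any of 6 motifs, which were the GC box GGGCGG, the E-box CACGTG, the cyclic AMP response element core TGACG, the TATA box TATAAA, the CCAAT box CCAAT and the GATA site AGATAA.
Adra1b, first start site: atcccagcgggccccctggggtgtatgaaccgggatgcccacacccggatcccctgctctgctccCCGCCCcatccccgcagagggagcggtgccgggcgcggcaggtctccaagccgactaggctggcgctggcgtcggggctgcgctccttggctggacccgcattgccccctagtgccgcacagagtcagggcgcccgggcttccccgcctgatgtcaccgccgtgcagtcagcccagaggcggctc
Adra1b, second start site: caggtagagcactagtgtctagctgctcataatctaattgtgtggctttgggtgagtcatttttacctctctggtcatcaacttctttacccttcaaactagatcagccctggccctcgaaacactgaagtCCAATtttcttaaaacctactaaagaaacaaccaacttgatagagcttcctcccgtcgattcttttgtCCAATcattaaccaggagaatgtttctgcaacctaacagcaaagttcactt
The first stretch had 72.8% G and C and 1 GC box, a motif found in 32.7% of the 32851 stretches of this length before RefSeq start sites. The second had 41.6% G and C and 2 CCAAT boxes, and 33.8% of all stretches held at least 1. These matches are descriptions of the sequence, and no binding was measured.

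*Adra1a* (chromosome 14, 66872700 to 67012152, plus strand), the other alpha1-adrenergic receptor, was close to the depth limit, with 11 to 71 counts per library. It was at 0.750, 0.695, 0.658 and 0.895 CPM in WT SH 1 to 4 and at 1.60, 1.27, 1.34 and 1.29 in KO SH 1 to 4. WT MI 1 to 4 held 0.652, 0.646, 0.697 and 0.478 CPM, and KO MI 1, 2, 3 and 7 held 0.569, 0.217, 0.8288 and 1.53. Every KO SH library was above every WT SH library, and KO MI ranged from below all WT libraries to within KO SH. A log2 fold change of 0.87 between KO SH and WT SH (SE 0.348) had an edgeR adjusted p of 0.142, above the threshold, with an exact permutation p of 0.0286. It passed with a term for high *Xist* (log2 fold change 1.15, edgeR adjusted p = 0.0634), with only these groups in the fit (0.87, adjusted p = 0.0093), without KO MI 2 and 7 (0.87, adjusted p = 0.0062), without KO MI 2 and 3 (0.87, adjusted p = 0.034) and with DESeq2 (0.87, adjusted p = 0.0893). From KO SH to KO MI the log2 fold change was -0.84 (SE 0.344, edgeR adjusted p = 0.125), and it passed without KO MI 7 (-1.35, adjusted p = 0.00436), without KO MI 2 and 7 (-0.97, adjusted p = 0.0141), with a term for high *Xist* (-0.93, adjusted p = 0.0737), with DESeq2 (-0.83, adjusted p = 0.0879) and with at least 10 counts in every library (-0.85, adjusted p = 0.0941). It shrank to -0.52 without KO MI 2 (adjusted p = 0.291), to -0.42 without KO MI 2 and 3 (adjusted p = 0.627) and to -0.18 among libraries with low *Xist* (adjusted p = 0.882). The KO MI values of this gene therefore turn on single libraries.

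*Adrb1* (chromosome 19, 56710631 to 56721545, plus strand), the main catecholamine receptor of ventricular muscle, varied little. Its levels were 21.1, 24.8, 25.5 and 23.7 CPM in WT SH 1 to 4, 26.4, 27.4, 28.6 and 25.0 in KO SH 1 to 4, and 22.0, 23.7, 24.02 and 20.6 in WT MI 1 to 4. KO MI 1, 2, 3 and 7 held 23.9, 24.1, 24.7 and 23.4 CPM. Each KO MI library was below each KO SH library, and the other neighbouring groups overlapped. The log2 fold change was 0.18 in KO SH against WT SH (95% interval 0.0362 to 0.319) and -0.16 in KO MI against KO SH (-0.300 to -0.0189), with edgeR adjusted p values of 0.12 and 0.134. The intervals exclude a change of 0.5 in either comparison. Unlike in *Adra1a* and *Adra1b*, KO MI 2 was not the lowest library of its group.

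Of the muscarinic receptors, *Chrm2* (chromosome 6, 36364718 to 36505582, plus strand), which mediates vagal slowing, was the abundant transcript. WT SH 1 to 4 held 130.2, 119, 111 and 108 CPM and KO SH 1 to 4 held 161, 148, 123 and 138. After MI the level was 77.7, 95.9, 101 and 89.1 CPM in WT MI 1 to 4 and 96.7, 82.0, 98.0 and 129.7 in KO MI 1, 2, 3 and 7. Every WT MI library was below every WT SH library, and in KO MI only replicate 7 reached the range of KO SH. *Chrm2* was 0.37 lower on the log2 scale in WT MI than in WT SH (log2 fold change -0.37, SE 0.117, edgeR adjusted p = 0.103, exact permutation p = 0.0286). It fell by 0.49 (SE 0.117, edgeR adjusted p = 0.0129) from KO SH to KO MI, just under the minimum of 0.5 for a DEG. The test of the difference between these responses gave -0.12 (SE 0.165, edgeR adjusted p = 0.789). Without KO MI 7 the fall from KO SH was 0.63 and counted as a DEG (log2 fold change -0.63, edgeR adjusted p = 0.000468), as it did without KO SH 3 (-0.55, adjusted p = 0.0143), without KO SH 4 (-0.50, adjusted p = 0.0306) and without KO MI 2 and 7 together (-0.55, adjusted p = 0.00328). It was smaller without KO MI 2 (-0.40, adjusted p = 0.0429), without KO MI 2 and 3 (-0.33, adjusted p = 0.247) and among libraries with low *Xist* (-0.20, adjusted p = 0.659). The antisense *9330158H04Rik* had 72 to 170 counts.

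*Chrm3* (chromosome 13, 9925522 to 10410883, minus strand), the Gq-coupled muscarinic receptor, was scarce, with 11 to 51 counts per library. It was at 0.365, 0.508, 0.601 and 0.629 CPM in WT SH 1 to 4 and at 0.947, 0.918, 1.06 and 0.866 in KO SH 1 to 4, groups that did not overlap. WT MI 1 to 4 held 0.526, 0.689, 0.765 and 0.521 CPM and KO MI 1, 2, 3 and 7 held 0.712, 0.217, 0.559 and 0.8294, all below KO SH. The transcript was 1.82-fold higher in KO SH than in WT SH, a log2 fold change of 0.86 (SE 0.303, edgeR adjusted p = 0.0908, exact permutation p = 0.0286). The call was lost without WT SH 1, 2 or 3 (log2 fold changes 0.71, 0.85 and 0.93), without KO SH 1, 2, 3 or 4 (0.87, 0.88, 0.80 and 0.90), with no filter (0.87, edgeR adjusted p = 0.112) and among libraries with low *Xist* (0.90, adjusted p = 0.181), and edgeR's adjusted p over the single left-out libraries ranged from 0.0841 to 0.248. From KO SH to KO MI the log2 fold change was -0.73 (SE 0.296, edgeR adjusted p = 0.121, exact permutation p = 0.0286), and it passed without KO MI 1 (-0.86, adjusted p = 0.0952), without KO MI 7 (-0.94, adjusted p = 0.0395), with DESeq2 (-0.73, adjusted p = 0.0888) and with at least 10 counts in every library (-0.74, adjusted p = 0.0837). It shrank to -0.45 without KO MI 2 (adjusted p = 0.315), to -0.31 without KO MI 2 and 3 (adjusted p = 0.698) and to -0.50 among libraries with low *Xist* (adjusted p = 0.654). Transcripts that overlap *Chrm3* on its own strand, *Gm47404* with 22 to 45 counts and *Gm47405* with 21 to 51, were as abundant as *Chrm3*, so the division of reads among them is uncertain.

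The vasopressin receptor *Avpr1a* (chromosome 10, 122284404 to 122289659, plus strand) lies 5.4 Mb from *Lrrc10* on the same chromosome. Its levels were 0.750, 0.909, 1.09 and 0.726 CPM in WT SH 1 to 4 and 1.44, 1.27, 0.960 and 1.65 in KO SH 1 to 4. WT MI 1 to 4 held 0.631, 0.861, 0.945 and 0.956 CPM and KO MI 1, 2, 3 and 7 held 1.20, 0.787, 0.983 and 1.04. KO SH was the highest group, and KO SH 3 lay within the range of WT SH. The log2 fold change of KO SH against WT SH was 0.62 (SE 0.212, edgeR adjusted p = 0.0838, exact permutation p = 0.0571). It was not called without WT SH 1, 2 or 4 (0.55, 0.65 and 0.55), without KO SH 1, 2 or 4 (0.58, 0.64 and 0.50), with a term for high *Xist* (0.58, edgeR adjusted p = 0.145), with no filter (0.62, adjusted p = 0.135) or among libraries with low *Xist* (0.60, adjusted p = 0.337). In KO MI against WT MI the log2 fold change was 0.24 (95% interval -0.205 to 0.688, edgeR adjusted p = 0.733).

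The 250 bases before the RefSeq start sites of *Chrm3* and *Avpr1a* are shown because these were the 2 receptors called in KO SH. They are on GRCm38.p6 at chr13:10360804-10361053 (minus strand) and chr10:122448249-122448498 (plus strand), with capitals for the motifs given above.
Chrm3: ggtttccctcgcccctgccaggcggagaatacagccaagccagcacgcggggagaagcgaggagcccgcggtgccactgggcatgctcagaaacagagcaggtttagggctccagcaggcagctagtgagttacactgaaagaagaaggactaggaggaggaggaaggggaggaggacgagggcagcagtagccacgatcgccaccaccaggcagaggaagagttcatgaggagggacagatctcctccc
Avpr1a: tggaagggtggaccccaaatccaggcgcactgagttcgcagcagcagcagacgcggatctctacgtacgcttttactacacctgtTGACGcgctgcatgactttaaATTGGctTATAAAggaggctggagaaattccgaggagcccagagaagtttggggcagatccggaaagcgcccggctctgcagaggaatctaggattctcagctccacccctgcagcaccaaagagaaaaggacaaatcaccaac
None of the 6 motifs was found in the *Chrm3* stretch (61.2% G and C). The *Avpr1a* stretch (53.6% G and C) held a cyclic AMP response element core from position -165, a CCAAT box from -144 and a TATA box from -137, counted back from the base before the start site. TGACG was found in 17.8% and TATAAA in 12.4% of all stretches of this length. Of the 8 stretches listed for 7 receptor genes, 3 held a GC box, 3 this core, 5 a CCAAT box and 1 a TATA box, and none held the E-box (6.02% of all stretches) or the GATA site (9.99%). *Adra1a* and *Agtr1a* have no sequence shown here.

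*Agtr1a* (chromosome 13, 30518942 to 30566850, plus strand), the AT1a angiotensin receptor, was the receptor that set KO MI apart from each other group. WT SH 1 to 4 held 11.2, 13.0, 13.8 and 11.7 CPM, KO SH 1 to 4 held 13.2, 14.4, 12.3 and 12.7, and WT MI 1 to 4 held 11.46, 13.7, 13.5 and 13.9. In KO MI 1, 2, 3 and 7 the level was 10.4, 7.56, 8.77 and 10.1 CPM. All 4 KO MI libraries were below all 12 others, and those 12 overlapped between groups. *Agtr1a* fell by 0.52 on the log2 scale against WT MI (SE 0.0995, edgeR adjusted p = 0.00939) and by 0.52 against KO SH (SE 0.0998, adjusted p = 0.00396), each with an exact permutation p of 0.0286. KO MI is a member of both comparisons. In sham hearts the knockout difference was 0.08 (95% interval -0.125 to 0.292), and in WT hearts the MI difference was 0.08 (-0.123 to 0.292). The test of the difference between the knockout effects in MI and SH gave -0.60 (SE 0.1403, edgeR adjusted p = 0.146), and it passed with DESeq2 (-0.60, adjusted p = 0.0138), without KO MI 7 (-0.65, adjusted p = 0.0218) and without KO MI 2 and 7 (-0.54, adjusted p = 0.0511). This difference shrank to -0.52 without KO MI 2 (edgeR adjusted p = 0.201) and to -0.44 without KO MI 2 and 3 (adjusted p = 0.391). Among libraries with low *Xist* it was -0.43 (edgeR adjusted p = 0.793).

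The size of the *Agtr1a* fall was close to the minimum fold change. Against WT MI it was under 0.5 without WT MI 2 (log2 fold change -0.50), WT MI 4 (-0.49), KO MI 2 (-0.43) or KO MI 3 (-0.50), with edgeR adjusted p values from 0.024 to 0.0365 in these 4 fits. Against KO SH it was under 0.5 without KO SH 2 (-0.47), KO MI 2 (-0.43) or KO MI 3 (-0.49), with adjusted p values from 0.0111 to 0.0161. Without KO MI 2 and 7 together it was -0.46 against WT MI (adjusted p = 0.0381) and -0.45 against KO SH (adjusted p = 0.0102). Without KO MI 2 and 3 together, the libraries of highest *Nppa*, the log2 fold change was -0.36 against WT MI (edgeR adjusted p = 0.127) and -0.36 against KO SH (adjusted p = 0.0992). Among libraries with low *Xist* it was -0.41 (adjusted p = 0.313) and -0.42 (adjusted p = 0.147). The near-identical *Agtr1b* had 0 to 4 counts, and *Gm48161*, on the same strand and overlapping *Agtr1a*, had 264 to 480.

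Of the endothelin receptors, *Ednra* (chromosome 8, 78386590 to 78451552, minus strand), found in muscle cells and fibroblasts, differed little. WT SH 1 to 4 held 40.8, 43.0, 44.2 and 43.1 CPM, KO SH 1 to 4 held 38.9, 42.5, 45.6 and 41.7, and WT MI 1 to 4 held 48.1, 46.2, 46.9 and 47.8. KO MI 1, 2, 3 and 7 held 39.2, 35.1, 38.6 and 49.4 CPM. WT MI was above all SH libraries, and 3 of the 4 KO MI libraries were below all WT MI libraries. The log2 fold change was 0.14 in WT MI against WT SH (SE 0.0791, edgeR adjusted p = 0.383) and -0.22 in KO MI against WT MI (SE 0.079, adjusted p = 0.203). The 95% interval of the latter, -0.388 to -0.0557, excludes a change of 0.5.

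*Ednrb* (chromosome 14, 104052053 to 104081900, minus strand), the endothelin receptor of endothelial cells, was the receptor with a positive difference in KO MI against KO SH. Its level was 21.3, 24.5, 22.3 and 25.2 CPM in WT SH 1 to 4, 19.9, 22.2, 21.4 and 21.5 in KO SH 1 to 4, and 24.7, 23.7, 26.0 and 25.9 in WT MI 1 to 4. In KO MI 1, 2, 3 and 7 it was 20.7, 28.5, 30.6 and 24.1 CPM, so that replicates 2 and 3 were the highest of all 16 libraries and replicate 1 lay within KO SH. The log2 fold change against KO SH was 0.29 (SE 0.0948, edgeR adjusted p = 0.0573, exact permutation p = 0.114), under the minimum for a DEG. Without KO MI 2 and 3 it was 0.07 (adjusted p = 0.793). In the same libraries the 8 endothelial markers summed to between 729.8 and 877.4 CPM in KO MI and between 852 and 892.8 in KO SH, with 0 of 8 called.

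**Figure D3:**
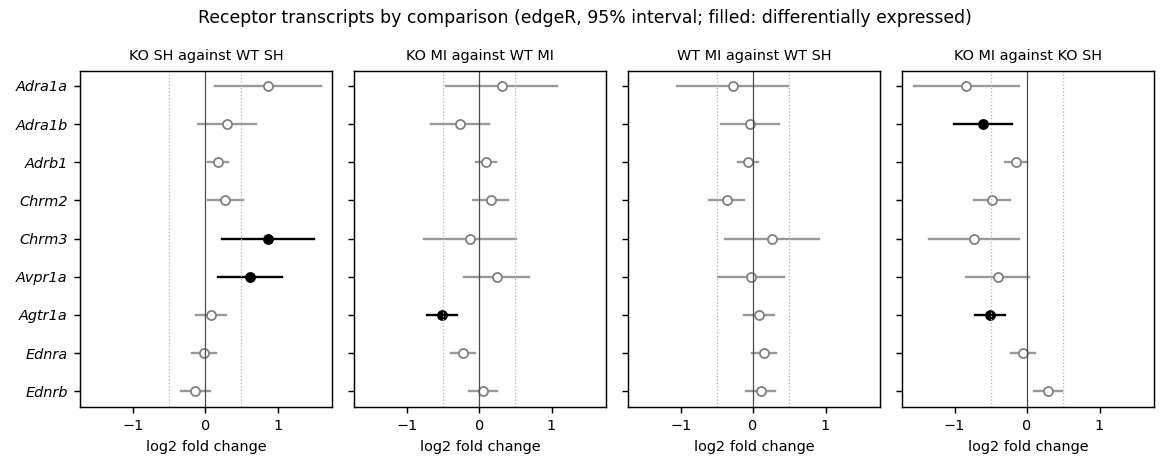
Log2 fold change of each receptor gene (point) with its 95% interval from the edgeR fit in the 4 comparisons, with dotted lines at the minimum of 0.5 for a DEG in each direction. Filled points mark the DEGs, which are *Chrm3* and *Avpr1a* in KO SH against WT SH, *Agtr1a* in KO MI against WT MI, and *Adra1b* and *Agtr1a* in KO MI against KO SH.

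Whether the knockout effect differed between MI and SH was tested by an interaction contrast. None of the 9 receptors was a DEG by edgeR, as against 0.0248% of all genes, 2 had an unadjusted p under 0.05 (13.6% of all genes), and DESeq2 called 1, *Agtr1a*. The interaction was negative for 8 of 9, with a median of -0.379 (0.0017 over all genes tested), and *Ednrb* was the exception at 0.19 (SE 0.134, edgeR adjusted p = 0.571). The largest was that of *Chrm3* at -0.99 (SE 0.429, edgeR adjusted p = 0.322). For *Adra1b* it was -0.56 (SE 0.269, adjusted p = 0.368), and this passed without KO MI 7 (-0.79, adjusted p = 0.0595) and without KO MI 2 and 7 (-0.53, adjusted p = 0.0745). The *Adra1b* value shrank to -0.35 without KO MI 2 (edgeR adjusted p = 0.485) and to -0.26 without KO MI 2 and 3 (adjusted p = 0.716). Among libraries with low *Xist* it was -0.14 (edgeR adjusted p = 0.959). The 9 contrasts use the same 16 libraries.

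The KO MI libraries differed more among themselves in several receptors than the other groups did. KO MI 2 was the lowest of its group for 7 of the 9 genes and KO MI 7 the highest for 5. Against the WT SH mean, the log2 ratio of *Adra1a* was -1.79 in KO MI 2 and 1.03 in KO MI 7, that of *Adra1b* was -1.23 and 0.23, and that of *Chrm3* was -1.28 and 0.66. The SD of *Adra1b* was 2.66 CPM in KO MI, against 0.590, 1.44 and 0.774 CPM in WT SH, KO SH and WT MI. In *Adrb1* it was 0.525 CPM, the smallest of the 4 groups. KO MI 2 had the highest *Nppa* of all libraries and KO MI 7 the lowest of its group, in the values given above, and the part of this in the receptor levels was not tested. Across the 16 libraries, which share the group differences, Pearson's r of log2(CPM + 0.5) was 0.834 between *Adra1a* and *Adra1b*, 0.83 between *Adra1a* and either of *Chrm2* and *Chrm3*, and -0.641 between *Chrm2* and *Ednrb*. These correlations are descriptions.

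**Figure D4:**
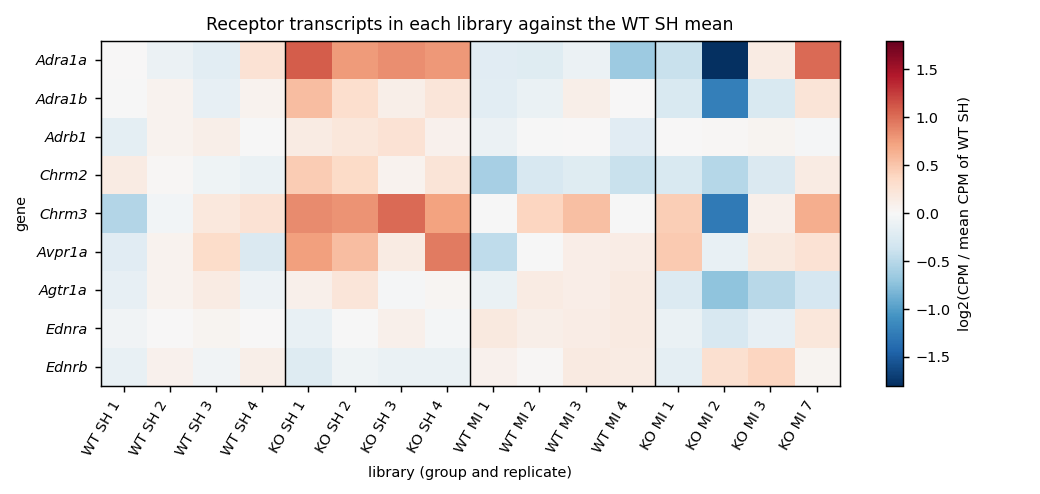
Log2 ratio of the CPM of each receptor gene in each of the 16 libraries to the mean of WT SH, with red above and blue below that mean. In KO MI 2, *Adra1a* (-1.79), *Chrm3* (-1.28) and *Adra1b* (-1.23) are the lowest, and *Ednrb* is above the mean in 3 of the 4 KO MI libraries.

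Genes whose level followed a receptor most closely were sought among 9573 other genes with a mean of at least 5 CPM, for the 7 receptors with a mean of at least 1 CPM. By Pearson's r over the 16 libraries, *Carns1* (0.968), *Nhsl1* (0.963) and *Rps6ka5* (0.959) were most like *Adra1b*. *Magi3* (0.944), *Map7* (0.927) and *Podxl2* (0.921) were most like *Chrm2*, and *Gpr22* (0.932), *Tmem182* (0.919) and *Nrip1* (0.915) most like *Agtr1a*. For the others the closest gene had an r of 0.92 (*Tmem181b-ps* with *Adrb1*), 0.89 (*Tmed3* with *Ednrb*), 0.885 (*Mllt10* with *Ednra*) and 0.857 (*Rbbp5* with *Avpr1a*). The points share library composition and group, and such values are the highest of many.

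Of 15 other receptors of the same families, 7 were tested and 0 were DEGs by edgeR or DESeq2 in any of the 4 comparisons or in the interaction. Of all genes tested edgeR called from 1.73% to 7.42% in the 4 comparisons and 0.0248% in the interaction, so 0 of 7 is near those shares. At an unadjusted p under 0.05 there was 1 in each comparison other than WT MI against WT SH, which had 0, as did the interaction. Of all genes 16.5% and 13.6% passed that cut in these last 2, and the shares for the other comparisons are not given here. In KO SH against WT SH their log2 fold changes were positive for 6 of 7 (median 0.397), with *Oxtr*, the oxytocin receptor, at 0.48 (SE 0.175, edgeR adjusted p = 0.107). *Oxtr* was at 1.54, 1.23, 1.66 and 1.48 CPM in WT SH 1 to 4 and at 2.14, 2.08, 1.92 and 2.10 in KO SH 1 to 4, without overlap. *Agtr2*, the angiotensin receptor that opposes AT1, had 5 to 50 counts per library.

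Among 26 genes of the ligands, their synthesis and their clearance, 16 were tested. *Ddc*, the decarboxylase that makes dopamine, was at 5.88, 4.36, 7.95 and 7.47 CPM in WT SH 1 to 4, at 12.5, 14.8, 11.2 and 19.96 in KO SH 1 to 4, at 14.0, 14.8, 14.6 and 10.3 in WT MI 1 to 4 and at 26.4, 25.3, 20.2 and 33.3 in KO MI 1, 2, 3 and 7. It was thus lowest in WT SH and highest in KO MI, and each comparison separated the groups. Its log2 fold change was 1.19 (SE 0.201, edgeR adjusted p = 0.00197) in KO SH against WT SH, 0.97 (adjusted p = 0.0113) in KO MI against WT MI, 1.07 (adjusted p = 0.00841) in WT MI against WT SH and 0.85 (adjusted p = 0.00929) in KO MI against KO SH. *Maob*, which degrades amines, rose in KO SH against WT SH (0.70, adjusted p = 0.00901) and in WT MI against WT SH (0.54, edgeR adjusted p = 0.0613). The latter call was lost without WT SH 1, 2 or 3 or WT MI 1, 2 or 4 (0.45 to 0.56) and with the term for high *Xist* (0.53, adjusted p = 0.118). Among libraries with low *Xist*, *Ddc* was not called in KO MI against WT MI (0.90, edgeR adjusted p = 0.322) or KO SH (0.78, adjusted p = 0.241), nor was *Maob* in KO SH (0.67, adjusted p = 0.106) or WT MI (0.49, adjusted p = 0.366). *Dbh*, which converts dopamine to noradrenaline, fell by 1.13 (SE 0.225, edgeR adjusted p = 0.00492) from KO SH (1.96 to 2.78 CPM) to KO MI (0.571 to 1.65 CPM). In WT hearts it was also lower after MI (1.04 to 1.60 CPM in WT MI, against 1.86 to 1.94 in WT SH), without overlap but not called. All KO SH libraries were above all WT SH libraries. *Ace*, which makes angiotensin II, and *Ece2*, an endothelin-converting enzyme, rose in the same comparison by 0.66 (edgeR adjusted p = 0.0731) and 0.63 (adjusted p = 0.0813). *Ace* was not called without KO SH 1, 2 or 3 (0.56, 0.63 and 0.70), KO MI 2 (0.32) or KO MI 3 (0.64). *Ece2* was not called without any 1 of KO SH 1 to 4 and KO MI 1, 2 and 3 (0.49 to 0.70), and kept its call without KO MI 7. With only these groups in the fit neither was called (*Ace* 0.66, edgeR adjusted p = 0.196, *Ece2* 0.63, adjusted p = 0.137). *Ace* was also not called with a robust fit (adjusted p = 0.132), nor *Ece2* with no filter (adjusted p = 0.109). With low *Xist* alone *Ace* was at 0.08 and *Ece2* at 0.29. In all, 2 of 16 were higher and 0 lower in KO SH, 1 and 0 in KO MI against WT MI, 2 and 0 in WT MI, and 3 and 1 in KO MI against KO SH. Over all genes tested the shares called in these comparisons were 5.01%, 1.73%, 2.78% and 7.42%.

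Of 19 receptor kinases, arrestins, RGS proteins and the AT1-binding protein *Agtrap*, 4 fell in KO SH against WT SH and 2 in KO MI against WT MI, while none rose. Of all genes tested 2.53% and 1.16% were called lower in these comparisons. *Rgs2*, which ends Gq signalling, was at 27.8, 23.1, 19.4 and 14.1 CPM in WT SH 1 to 4 and at 11.2, 10.4, 14.0 and 8.47 in KO SH 1 to 4. In WT MI 1 to 4 it was at 19.2, 22.9, 19.9 and 16.4 CPM, and in KO MI 1, 2, 3 and 7 at 8.99, 6.24, 7.46 and 11.6. All 8 knockout libraries were below all 8 WT libraries. In SH *Rgs2* had a log2 fold change of -0.93 (SE 0.200, edgeR adjusted p = 0.00897) and in MI of -1.20 (SE 0.202, adjusted p = 0.00355). *Rgs16* (-0.80, edgeR adjusted p = 0.00797) and *Rgs10* (-0.56, adjusted p = 0.0903) also fell in KO SH. *Rgs10* was not called without WT SH 1 (-0.33) or WT SH 2 (-0.52), or without any 1 of KO SH 1 to 4 (-0.63 to -0.49), nor with the term for high *Xist* (-0.56, edgeR adjusted p = 0.13). It was also not called with no filter (-0.56, adjusted p = 0.105) or with only these groups in the fit (-0.56, adjusted p = 0.102). Among libraries with low *Xist* none of these 3 was called, with *Rgs2* at -0.89 in SH (edgeR adjusted p = 0.116) and -1.04 in MI (adjusted p = 0.221), *Rgs16* at -0.79 (adjusted p = 0.117) and *Rgs10* at -0.55 (adjusted p = 0.342). *Agtrap*, which promotes AT1 internalization, fell in KO SH (-1.03, SE 0.270, edgeR adjusted p = 0.0268) and in KO MI (-1.09, SE 0.268, adjusted p = 0.0435). It was at 22.8 to 25.8 CPM in 6 of the 8 WT libraries, at 11 in WT SH 1 and 8.44 in WT MI 2, and at 8.70 to 11.2 in the 8 knockout libraries, so that a pair of WT libraries stood at or under the knockout level. The KO MI call was lost without WT MI 1 (-1.02), WT MI 3 (-0.98), WT MI 4 (-0.97) or KO MI 2 (-1.04). It was also lost with a robust fit (-1.09, edgeR adjusted p = 0.129) and with only these groups in the fit (-1.09, adjusted p = 0.157). Without KO MI 2 and 7 together it was lost as well (-1.06, adjusted p = 0.172). In KO MI against KO SH, 2 rose and none fell. These were *Rgs19* (0.52, edgeR adjusted p = 0.0553) and, under the level set for naming and chosen after its values were seen, *Rgs14* (1.05, SE 0.400, edgeR adjusted p = 0.0978), which DESeq2 did not call. *Rgs19* lost its call without KO SH 2 (0.47), KO SH 4 (0.41), KO MI 2 (0.50) or KO MI 3 (0.43), and among libraries with low *Xist* (0.74, adjusted p = 0.183). It also lost its call with only these groups in the fit (0.53, edgeR adjusted p = 0.117) and without KO MI 2 and 7 (0.54, adjusted p = 0.115).

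All 20 G protein subunit genes were tested, and *Gnb1*, the beta1 subunit, was the only one called by edgeR or DESeq2 in any of the 4 comparisons. *Gnb1* was called in KO SH against WT SH and in KO MI against KO SH, 1 of 20 in each. Of all genes tested 5.01% and 7.42% were called there, and 1.73% and 2.78% in KO MI against WT MI and WT MI against WT SH. Its levels also fell into steps, with 105 to 109 CPM in WT SH 2 to 4 and 63.1 in WT SH 1, 53.8 to 57.7 in KO SH, 105 to 112 in WT MI 1, 3 and 4 and 61.1 in WT MI 2, and 108, 176, 110.3 and 51.99 in KO MI 1, 2, 3 and 7. For *Gnb1* the change was -0.79 (SE 0.262, edgeR adjusted p = 0.075) in KO SH against WT SH and 1.001 (SE 0.262, adjusted p = 0.0205) in KO MI against KO SH. The sham call was lost without any 1 of WT SH 2 to 4 and KO SH 1 to 4 (-0.80 to -0.72), and with a robust fit (-0.79, edgeR adjusted p = 0.158). With low *Xist* alone neither was called (-0.78, edgeR adjusted p = 0.16, and 0.54, adjusted p = 0.472), and KO MI 7 lay below every KO SH library.

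Of 27 cyclic AMP enzymes and targets, 1 fell in KO SH against WT SH (*Adcy7*, an adenylyl cyclase, -0.50, edgeR adjusted p = 0.0619, lost without WT SH 1, 2 or 4 or KO SH 1, 2 or 4, -0.51 to -0.45), 1 in WT MI against WT SH and 3 in KO MI against KO SH, and none rose in any of the 4 comparisons. Of all genes tested 2.53%, 0.645% and 2.11% were called lower in these comparisons. Among libraries with low *Xist*, *Adcy7* (-0.45, edgeR adjusted p = 0.187) was not called, nor with at least 10 counts in every library (-0.4996, under the minimum of 0.5). *Akap5*, which anchors protein kinase A beside beta-adrenergic receptors, fell after MI in both genotypes, from 13.3 to 15.1 CPM in WT SH to 7.78 to 9.38 in WT MI (-0.72, SE 0.113, edgeR adjusted p = 0.00216) and from 15.96 to 17.5 in KO SH to 8.49 to 13.2 in KO MI (-0.59, SE 0.111, adjusted p = 0.0033). Without KO MI 2 the latter was -0.48, under the minimum. *Kcnj5*, the potassium channel subunit opened through M2, was at 65.6, 59.7, 62.9 and 65.7 CPM in KO SH 1 to 4 and at 46.7, 24.8, 40.3 and 62.1 in KO MI 1, 2, 3 and 7 (-0.55, SE 0.165, edgeR adjusted p = 0.0402). It was not called without KO MI 2 (-0.35) or KO MI 3 (-0.51, adjusted p = 0.103), nor with low *Xist* alone (-0.33, adjusted p = 0.371). With only these groups in the fit *Kcnj5* was also not called (-0.55, edgeR adjusted p = 0.141). *Pln*, the phospholamban through which beta-adrenergic signals speed calcium uptake, fell by 0.54 (SE 0.0966, edgeR adjusted p = 0.0027) from KO SH (2271 to 2445 CPM) to KO MI (1233 to 1928 CPM), and the log2 fold change was -0.42, under the minimum, without KO MI 2 and -0.45 with low *Xist* alone. Without KO MI 2 and 7 together it was -0.41.

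Of 19 genes of phospholipase C, protein kinase C and IP3 receptors, none was called in either knockout comparison (0 of 19 each by edgeR and by DESeq2). In KO SH against WT SH 5.01% of all genes tested were called by edgeR, and in KO MI against WT MI 1.73%, so 0 of 19 is near those shares. At an unadjusted p under 0.05 there were 5 and 3 of the 19, and the shares of all genes at that cut are not given here. *Prkcd*, a protein kinase C, rose after MI in both genotypes, from 6.66 to 7.38 CPM in WT SH to 8.95 to 11.9 in WT MI (0.59, SE 0.104, edgeR adjusted p = 0.00579) and from 6.02 to 7.62 in KO SH to 9.47 to 12.5 in KO MI (0.70, SE 0.104, adjusted p = 0.000939). *Prkcb* (0.79, edgeR adjusted p = 0.0487) and *Rcan1*, an inhibitor of calcineurin (0.63, adjusted p = 0.0329), rose in KO MI against KO SH. The call of *Prkcb* was lost without KO SH 1, 3 or 4 (0.77, 0.73 and 0.78) or KO MI 3 (0.47), and that of *Rcan1* without KO MI 2 (0.30) and with low *Xist* alone (0.23, edgeR adjusted p = 0.57). Both were lost with only these groups in the fit (0.79, adjusted p = 0.106, and 0.63, adjusted p = 0.112). *Rcan1* was also under the minimum without KO MI 2 and 7 (0.39). Of all genes tested 7.42% were called in this comparison and 2.78% in WT MI against WT SH. Without KO MI 2 and 3 together, *Ace*, *Ece2*, *Gnb1*, *Rgs19*, *Akap5*, *Kcnj5*, *Pln*, *Prkcb* and *Rcan1* were not called in KO MI against KO SH, nor *Agtrap* in KO MI against WT MI, while *Ddc*, *Dbh*, *Prkcd* and *Rgs2* kept their calls.

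**Figure D5:**
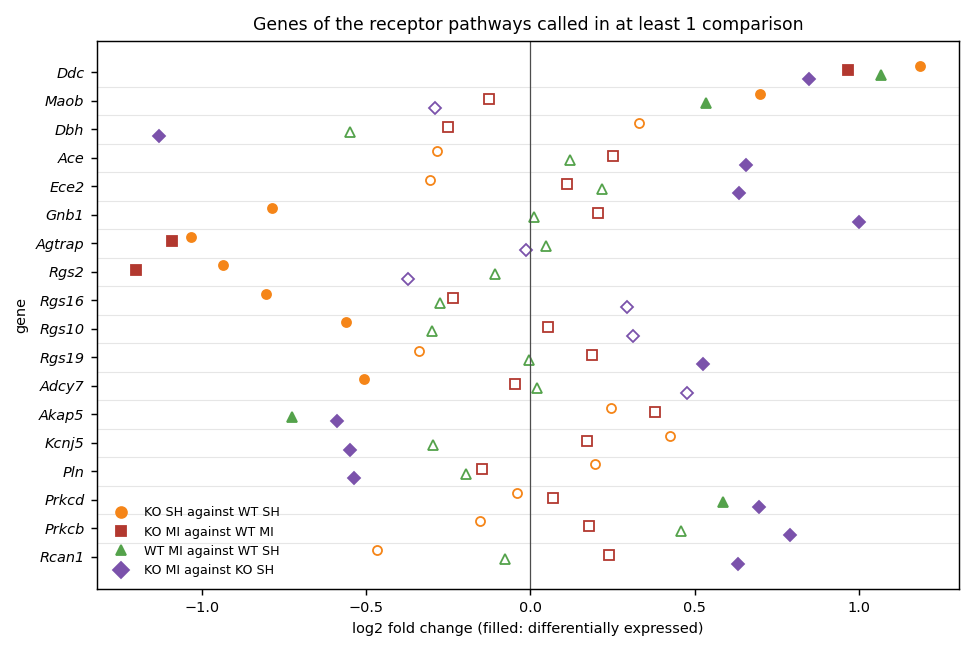
Log2 fold change of the 18 pathway genes that met the rule for naming in at least 1 of the 4 comparisons, with filled symbols for DEGs. *Ddc* is above 0 in all 4 comparisons, and *Rgs2* and *Agtrap* are lowest in the knockout comparisons.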

How the data were processed

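Ventricular RNA of 16 mice was compared in 4 groups of 4, taken from the labels; whether the mice came from separate litters is not stated, so p-values measure the spread between these libraries. The authors deposited RSEM expected counts per gene, as whole numbers without normalization, and no column was left unused (0). According to the study's methods, reads were trimmed with Skewer, aligned to GRCm39 with STAR and counted with RSEM, while the submitters' processing notes list cutadapt 3.4, HISAT2 2.2.1 and RSEM 1.1.17. Expected counts of near-identical genes are estimates. Of 51912 identifiers, 47772 had a name and position in GENCODE M39, and those without held from 0.57% to 0.786% of a library's counts. The annotation release used by the authors is not given in the sources used here.

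Counts were analysed in R 4.3.3 with edgeR 4.0.16 (TMM, quasi-likelihood F-tests, 1 coefficient per group over all 16 libraries) after a filter (at least 10 counts summed over every group). Fold changes and SEs are from that fit. Single genes were also compared by exact permutation tests (two-sided) on log2(CPM + 0.05), 36 in all and not adjusted. The script was tested on simulated data. DESeq2 1.42.0, other scalings, filters and thresholds, a replicate block, a term for high *Xist* and left-out libraries were tried as alternatives. The members, lists and tests were chosen with earlier results of these data known. Named genes are the 9 receptors, up to 4 DEGs per pathway list and comparison averaging 1 CPM or more, and the 3 genes most like each receptor. *Nppa*, *Myl7*, *Myl4*, *Myl1*, *Oxtr*, *Agtr2*, *Agtr1b*, *Rgs14*, *mt-Rnr2* and the overlapping transcripts were chosen after their values were seen. Intervals and floors cover counting error and the spread between libraries only. Upstream sequences are from RefSeq on GRCm38.p6, matched by symbol for 7 of 9 receptors.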

Additional observations from a re-analysis of the deposited data

Results flagged for a closer look

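In groups of 4 libraries, a library was picked out where its gap to the nearest other library exceeded Dixon's 95% critical value as a share of the range. This was applied to the 9 receptors and 18 named pathway genes, in 108 groups in all, of which chance picks out about 1 in 20. None of the 36 receptor groups had such a library. *Agtrap* was at 11 CPM in WT SH replicate 1, against 22.8 to 23.9 CPM in the other WT SH libraries, and at 8.44 CPM in WT MI replicate 2, against 23.6 to 25.8 CPM. *Gnb1* was at 63.1 CPM in WT SH replicate 1, against 105 to 109 CPM, and at 61.1 CPM in WT MI replicate 2, against 105 to 112 CPM. The same pair of libraries stood apart for both genes, and all other named pathway genes had none.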

How the results depend on the processing

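No call of a receptor turned in direction under any alternative. Of 1008 alternative values of the receptors, 932 kept their side of the threshold and direction, 37 lost and 29 gained a call, and 10 moved without a call; of 567 for the pathway genes, 101 lost a call. In KO SH against WT SH, the 2 receptor DEGs became 0 at an adjusted p under 0.05, with no filter and among libraries with low *Xist*, and 0 to 1 without single libraries, while the 1010 DEGs of all genes became 2486 with no minimum fold change, 409 with low *Xist*, and 665 to 1232. In KO MI against WT MI, the 1 receptor DEG became 0 without KO MI 2 and 7, without KO MI 2 and 3 and with low *Xist*, and 0 to 1 without single libraries; the 348 of all genes became 619 with no minimum, 192 with only these groups in the fit, 149 with low *Xist*, 208 without KO MI 2 and 3, and 229 to 582. In WT MI against WT SH, the receptor count was 0 throughout, and the 560 became 1071 with no minimum, 205 with low *Xist*, and 281 to 642. In KO MI against KO SH, the 2 receptor DEGs became 4 with no minimum, with DESeq2 and with at least 10 counts in every library, 1 with only these groups, 0 with low *Xist* and without KO MI 2 and 3, and 0 (without KO MI 2) to 5 (without KO MI 7); the 1495 became 3536 with no minimum, 588 with low *Xist*, 279 without KO MI 2 and 3, and 883 to 2200. In the interaction, the 0 receptor DEGs became 1 with DESeq2, 2 without KO MI 2 and 7, and 0 to 2; the 5 became 3 at an adjusted p under 0.05 and with low *Xist*, 289 with DESeq2, 39 with no filter, 8 with a robust fit and with the *Xist* term, 358 without KO MI 2 and 7, and 2 to 843. The causes were not tested, beyond the fewer samples and genes that some of these use. Whether replicate numbers pair the libraries is not stated. The r of deviations from group means ran from -0.131 to 0.175 over 21 same-number pairs, with 3 over 0.1. Of 16 libraries 4 were closest to their own number, and a shared litter or batch was not tested. With the replicate block there were 5 receptor DEGs in KO MI against KO SH and 2 in the interaction, where all genes gave 689. No other library carries the number 7, and without KO MI 7 these counts were 5, 2 and 843, so pairing and the loss of KO MI 7 cannot be told apart. Under the block *Avpr1a* lost its call in KO SH against WT SH (0.61, edgeR adjusted p = 0.111) and *Adra1a* gained one (0.86, adjusted p = 0.0542). The alternatives without KO MI 2 and 3 and with low *Xist* were chosen after seeing the data. *Adra1a*, *Chrm3* and *Avpr1a*, with 11 to 71 counts per library, are limited by depth.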
